A study of Mus musculus with 42 samples.

Results

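The data are RNA counts for 40 mouse genes of autophagy and the lysosome in kidney and liver of mice that ate a kinase inhibitor or another compound for 1 month. The genes were chosen by symbol and cover control of lysosomal gene expression, autophagosome formation, lysosomal membranes, hydrolases and the proton pump. All 40 symbols matched an Ensembl gene identifier among the 43629 in the deposited table. The animals were males of UM-HET3, a stock in which each mouse inherits a different mix of several inbred strains, and the controls were littermates of the treated mice. They ate Purina 5LG6 chow with a compound, or the chow alone, from 3 to 4 months of age. RNA was read by CEL-seq, which barcodes each sample and counts the 3′ ends of polyadenylated transcripts.

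Kidney was sampled in 30 libraries. There were 6 control libraries and 4 for each of 6 compounds, namely AZD8055 at 20 ppm of the diet, KU0063794 at 10 ppm, GDC-0941 at 50 ppm, AS-703026 at 30 ppm, enzastaurin at 75 ppm and ascorbyl-palmitate at 6.3 ppm. AZD8055 and KU0063794 inhibit the kinase mTOR, GDC-0941 inhibits PI3-kinase, AS-703026 inhibits MEK and enzastaurin inhibits protein kinase C. Ascorbyl-palmitate is a fat-soluble ester of vitamin C. Liver was sampled in 12 libraries, 4 each for AS-703026, enzastaurin and GDC-0941 at the same doses, and liver controls were not analysed here. The libraries of a group are labelled as biological replicates. Whether a kidney and a liver came from the same mouse is not given in the sources used here.

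Autophagy encloses cytoplasm in a sealed membrane, the autophagosome, which fuses with a lysosome, where acid hydrolases digest its content. In fed cells the kinase complex mTORC1 restrains this process by phosphorylating ULK1, which starts autophagosome formation, and TFEB and TFE3, transcription factors that otherwise enter the nucleus and bind E-boxes in the promoters of lysosomal genes. Proximal tubule cells of the kidney and hepatocytes of the liver both carry an extensive lysosomal system. Much of the control by mTORC1 is through protein modification, which RNA counts do not read.

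Of the 40 genes, 32 have a window in the RefSeq promoter table (build GRCm38.p6), which spans 250 bases before to 50 bases after a transcription start. The windows were searched for the E-box CACGTG, the core of the element that TFEB and TFE3 bind. This motif and its extensions TCACGTGA and GTCACGTGAC, which both contain it, read the same on both strands. CACGTG was present in 13 of the 32 genes (40.6%), against 2187 of 27025 genes of the table with a window (8.09%). TCACGTGA was present in 6 of the 32 (18.8%), namely Atp6v0d1, Atp6v1a, Ctsa, Ctsd, Gla and Mcoln1, against 304 of 27025 (1.12%). GTCACGTGAC was found in 0 of the 32, against 100 of 27025 (0.370%). These genes entered the list as known genes of autophagy and the lysosome, so the shares describe the list and are no test of it. The stretches around the E-box are shown for 7 genes that differ in how many they hold and that recur in the results, 5′ to 3′ on the strand of the gene, with CACGTG in capitals. The starts are those of the promoter table. The Ctsa, Ctsl and Atp6v1a stretches, and most of the Naglu and Mcoln1 stretches, lie inside the gene as placed by the GENCODE annotation. For Mcoln1 that part holds the later of its 2 E-boxes. A match in the letters describes the window and does not show a bound site.
Lamp1, chr8:13159086-13159160, plus strand: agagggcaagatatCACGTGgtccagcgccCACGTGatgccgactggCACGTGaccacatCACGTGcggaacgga
Mcoln1, chr8:3500434-3500493, plus strand: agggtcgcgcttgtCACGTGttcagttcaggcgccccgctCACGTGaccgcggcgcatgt
Gla, chrX:134601180-134601246, minus strand: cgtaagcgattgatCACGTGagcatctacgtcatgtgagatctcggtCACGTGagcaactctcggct
Ctsa, chr2:164833747-164833772, plus strand: aatgagcaaactgtCACGTGatgcag
Ctsl, chr13:64370737-64370770, minus strand: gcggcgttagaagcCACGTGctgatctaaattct
Naglu, chr11:101070007-101070040, plus strand: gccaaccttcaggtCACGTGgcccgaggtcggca
Atp6v1a, chr16:44139371-44139404, minus strand: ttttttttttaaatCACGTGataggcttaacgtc

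Lamp1, which encodes a main glycoprotein of the lysosomal membrane, holds 4 E-boxes in this stretch. Mcoln1, the lysosomal calcium channel, and Gla, alpha-galactosidase A, hold 2 each, and the other 4 genes hold 1 each.

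Total counts ran from 863605 to 5691067 per kidney library (median 2248550) and from 1084591 to 4361115 per liver library (median 2792768). AZD8055 kidney replicate 4 stood apart and is given separately throughout. Its 7 adipocyte markers summed to 31987 CPM (counts scaled with TMM factors to a library of 1000000), against 75.4 to 155 in the controls. Its 6 proximal tubule markers summed to 3181 CPM, against 8709 to 12001 in the controls. In the other kidney libraries the proximal tubule sum was between 5102 and 13921 CPM, and in every liver library it was at most 3.27 CPM. The hepatocyte sum was 60362 to 78992 CPM in liver. In 11 of the 30 kidney libraries at least 5% of counts fell on 13 gene models that resemble satellite repeats. These were 3 of the 4 AS-703026 libraries, 2 of 6 controls, 2 each of the AZD8055 and GDC-0941 libraries and 1 each of the KU0063794 and ascorbyl-palmitate libraries. In bulk tissue, fewer cells of a type and less RNA per cell cannot be told apart.

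No member passed the test under either mTOR inhibitor in kidney, among the 39 that could be tested. The remaining member, Atg9a, the lipid scramblase of the growing autophagosome, had 128 counts over all 42 libraries and did not pass the filter on low counts in any fit. Genes were tested with edgeR's quasi-likelihood test against the control diet, with p-values adjusted over all 12227 genes, and a gene was called at an adjusted p under 0.05. For the mean of AZD8055 and KU0063794, 0 of 39 members were called, against 1.50% of all genes. At an unadjusted p under 0.05 there were 10 of 39, against 16.5% of all genes, and DESeq2 called 1, Ctsh (adjusted p = 0.0427). Shares of all genes, here and below, are those of edgeR. The DESeq2 counts of members stand without such a share, so they cannot be set against it. The edgeR count behind the 1.50% was 184 and ran from 19 (without control 5) to 541 (without control 6) when 1 library was left out. The log2 change was above 0 in 30 of 39 members, against 47.6% of all genes, with a median of 0.16 over the members and -0.02 over all genes. The values ranged from -0.23 to 0.53.

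By role, the values were above 0 for all 6 cathepsins, the main lysosomal proteases (median log2 change 0.30, range 0.22 to 0.42), and for all 5 members of the ATG8 family, the small proteins that are attached to the autophagosome membrane (median 0.24, range 0.21 to 0.32). The 7 glycosidases, which cut sugars from glycoproteins and glycolipids, ranged from 0.01 to 0.53 (median 0.24). The 4 V-ATPase members, parts of the pump that acidifies the lysosome, ranged from -0.04 to 0.30 (median 0.05), and the 4 lysosomal membrane genes from -0.09 to 0.21 (median 0.03). The 4 genes of lipid breakdown ranged from -0.16 to 0.34 (median -0.04). The transcription factors Tfeb and Tfe3 stood at 0.12 and 0.05. Of the initiation genes, the kinase Ulk1 and its scaffold Rb1cc1 both stood at -0.23, and Becn1, a subunit of the lipid kinase complex that marks the forming membrane, at 0.18. Sqstm1, the receptor p62 that brings cargo to the autophagosome, stood at 0.13. None of these values passed the test. Scaling with RLE size factors in place of TMM gave the same directions in the cathepsins and the ATG8 family for this comparison.

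The other compounds, set against the same controls, gave values for these families that are no separate evidence. The 5 ATG8 genes ranged from 0.18 to 0.31 under GDC-0941, from 0.19 to 0.28 under enzastaurin, from 0.09 to 0.26 under ascorbyl-palmitate and from 0.03 to 0.21 under AS-703026. The 6 cathepsins ranged from -0.08 to 0.48 under GDC-0941, from 0.00 to 0.36 under enzastaurin (from -0.01 under RLE scaling), from -0.07 to 0.50 under ascorbyl-palmitate and from -0.18 to 0.21 under AS-703026. Values above 0 in the ATG8 family were therefore not limited to the mTOR inhibitors.

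**Figure D1:**
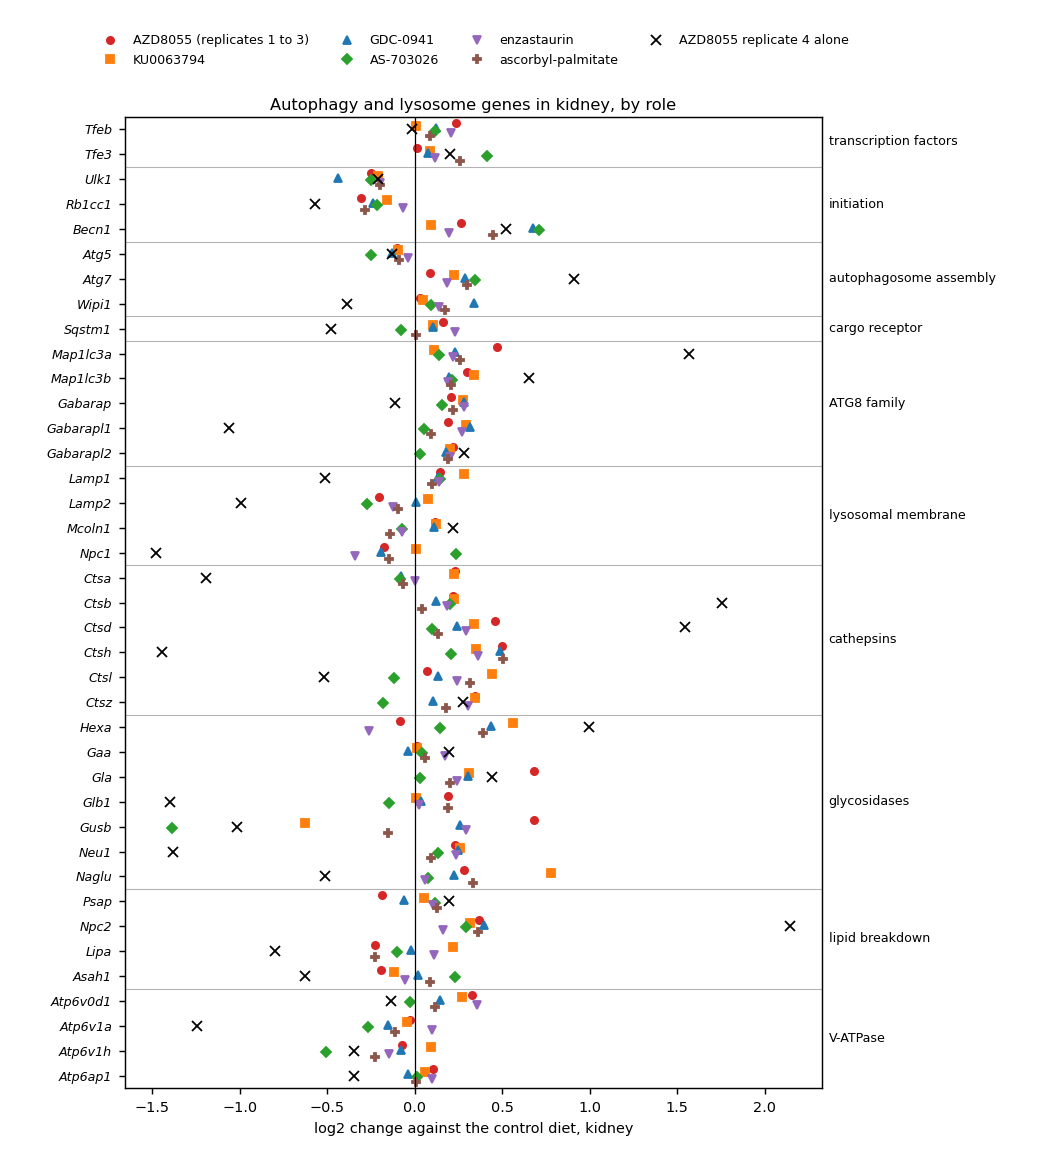
Log2 change against the control diet in kidney (horizontal axis) for the 39 members tested, ordered by role. Coloured symbols are the fitted changes under the 6 compounds, and crosses are AZD8055 replicate 4 alone against the controls, which entered no fit shown here. Most symbols lie within 0.5 of 0, the ATG8 genes lie above 0 under all 6 compounds and the cathepsins under both mTOR inhibitors and enzastaurin (for enzastaurin 5 of 6 under RLE scaling), and the crosses for Npc2, Ctsb, Map1lc3a and Ctsd lie farthest to the right.

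Ctsh encodes cathepsin H, an aminopeptidase of the lysosome (ENSMUSG00000032359, GRCm38 chr9:90054152-90076089, plus strand), and it had the smallest p-value among the members for the mTOR mean. Its control level was 154 CPM at the lowest, 177 at the median and 216 at the highest. The AZD8055 libraries held 233, 266 and 269 CPM, and the KU0063794 libraries held 168, 252, 232 and 266 CPM. All 3 AZD8055 libraries were above every control and 3 of 4 KU0063794 libraries were. The mean log2 change over both compounds was 0.42 ± 0.14 (SE; edgeR adjusted p = 0.109).

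Map1lc3a encodes LC3A, an ATG8 family protein (ENSMUSG00000027602, GRCm38 chr2:155276297-155278073, plus strand). It was between 100 and 165 CPM in the controls (median 114), at 177, 171 and 175 CPM under AZD8055, and at 141, 130, 132 and 141 CPM under KU0063794. The AZD8055 libraries lay above every control and those on KU0063794 lay within the control range. The log2 change was 0.47 ± 0.13 (SE; edgeR adjusted p = 0.116) under AZD8055 and 0.11 under KU0063794.

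AZD8055 alone gave 0 called members of 39 with edgeR, against 0.204% of all genes. Unadjusted p-values under 0.05 numbered 4, against 12.8% of all genes, and DESeq2 called 1, Map1lc3a (adjusted p = 0.0319). Changes above 0 were found in 28 of 39 members, against 49.4% of all genes. All AZD8055 libraries lay above all controls in 2 members, Map1lc3a and Ctsh, against 2.71% of all genes. They lay below all controls in 1 member, against 2.54% of all genes. This was Lamp2, a partner of LAMP1 in the lysosomal membrane, at 522 to 573 CPM against 585 to 761 CPM. Ctsd, the aspartic protease cathepsin D, was at 314, 364 and 432 CPM against 214 to 341 CPM (median 248) in the controls, a log2 change of 0.46 ± 0.18 (SE; edgeR adjusted p = 0.248). Npc2, which carries cholesterol inside the lysosome, was at 88.7, 76.3 and 103 CPM against 50.7 to 89.6 CPM (median 69.5), a change of 0.37 ± 0.18 (edgeR adjusted p = 0.373). For both genes the groups overlapped.

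KU0063794 gave 0 called members of 39, against 0.0409% of all genes. With unadjusted p-values the threshold was passed by 8, against 12.3% of all genes, and DESeq2 called 0. The log2 change was above 0 in 33 of 39 members, against 47.6% of all genes, and in 29 of 39 under RLE scaling. Naglu, an enzyme of heparan sulfate breakdown (ENSMUSG00000001751, GRCm38 chr11:101070012-101077672, plus strand), had the smallest p-value. It was at 30.7, 26.5, 14.3 and 13.997 CPM under KU0063794 and between 7.997 and 15.4 CPM (median 12.2) in the controls. Replicates 1 and 2 lay above every control and replicates 3 and 4 within the control range. The log2 change was 0.78 ± 0.26 (SE; edgeR adjusted p = 0.238).

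The AZD8055 library given apart, replicate 4, had its own pattern over the members. It lay above all 6 controls in 7 of the 39 members (17.9%), against 26.4% of all genes, and below all 6 in 18 (46.2%), against 27.1% of all genes. Ctsb, the cysteine protease cathepsin B (ENSMUSG00000021939, GRCm38 chr14:63122462-63145923, plus strand), was at 2766 CPM there, against 826, 909 and 1122 CPM in the other AZD8055 libraries and 692 to 1007 CPM (median 780) in the controls. Ctsd was at 782 CPM, Map1lc3a at 371 CPM and Npc2 at 305 CPM, each above all the other kidney libraries of its diet and the controls. In the other direction, Ctsh was at 66.6 CPM. Neu1, a sialidase, was at 123 CPM against a control mean of 322 CPM. Atp6v1a, the catalytic subunit of the V-ATPase, was at 727 CPM against 1724 CPM, and Glb1, a beta-galactosidase, was at 23.5 CPM against 62.1 CPM. Lysosomal genes thus lay on both sides of the controls in this library. The adipocyte and proximal tubule sums given above moved with it, and their part in these values was not tested.

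With replicate 4 in the fit, 4 of the 39 members were called higher under AZD8055, against 3.77% of all genes called higher and 5.46% called in either direction. They were Map1lc3a (log2 change 0.86 ± 0.18, edgeR adjusted p = 0.00547), Npc2 (1.09 ± 0.26, 0.0141), Ctsd (0.85 ± 0.21, 0.0155) and Ctsb (0.81 ± 0.23, 0.0311). Without that library the calls were 0. For Ctsb the change without it was 0.22, with the AZD8055 and control ranges overlapping.

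**Figure D2:**
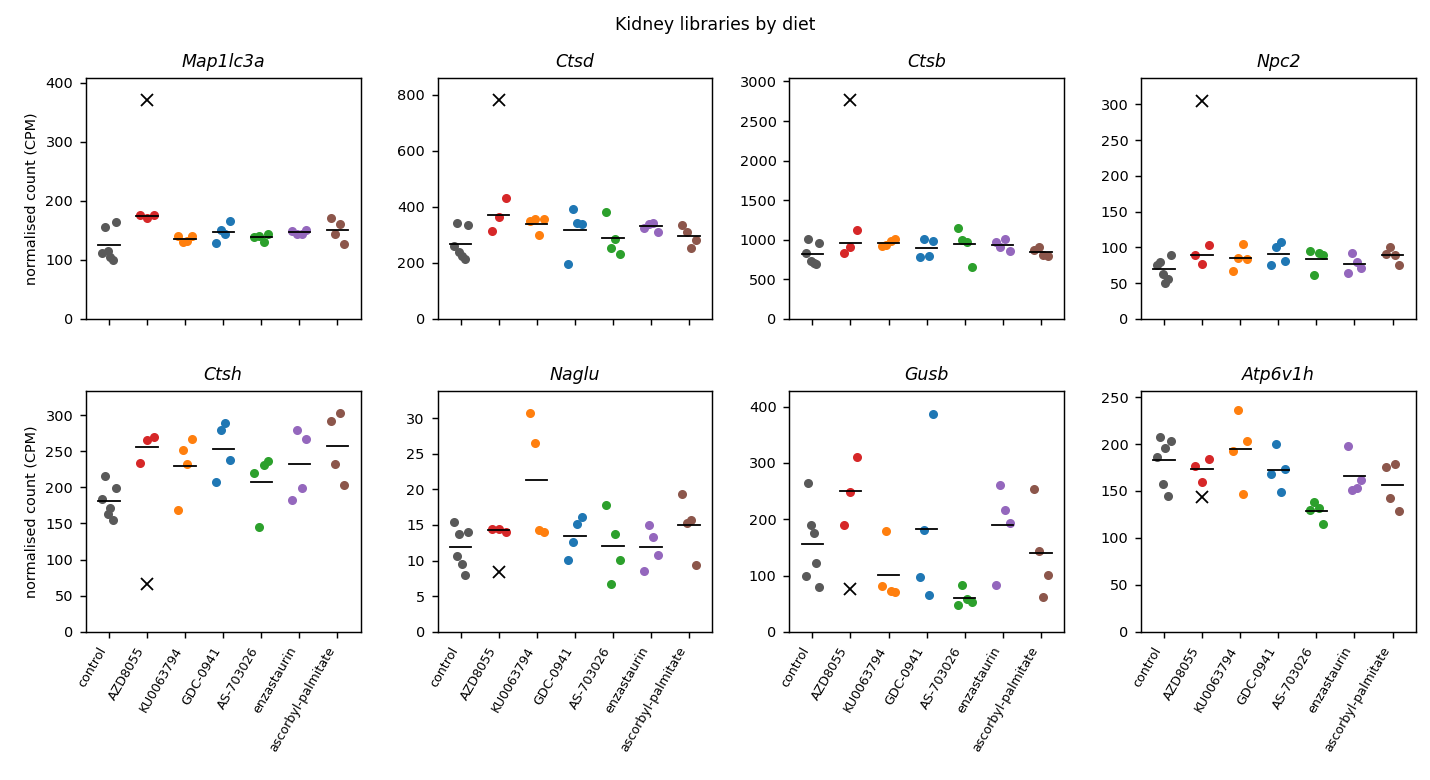
CPM per kidney library for Map1lc3a, Ctsd, Ctsb, Npc2, Ctsh, Naglu, Gusb and Atp6v1h, grouped by diet. Points are libraries, bars are group means and the cross is AZD8055 replicate 4, which is not in the mean. The cross is the highest AZD8055 value for Map1lc3a, Ctsd, Ctsb and Npc2 and the lowest for the other 4 genes.

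AZD8055 and KU0063794 were given at different doses, 20 and 10 ppm, so their difference is one of both compound and dose. Set against each other in kidney, 0 of 39 members were called, against 0 percent of all genes. At an unadjusted p under 0.05 there were 3 members, against 3.45% of all genes, and DESeq2 called 0. The members' log2 differences, AZD8055 minus KU0063794, had a median of -0.01. Gusb, beta-glucuronidase (ENSMUSG00000025534, GRCm38 chr5:129989011-130003049, minus strand), had the smallest p-value, with a difference of 1.30 ± 0.48 (SE; edgeR adjusted p = 1.00). It was at 190, 248 and 311 CPM under AZD8055 and at 81.8, 179, 72.7 and 70.7 CPM under KU0063794. The 6 controls ran from 80.3 to 265 CPM (median 149). In this gene 1 AZD8055 library lay above the highest control and 3 KU0063794 libraries lay below the median control, 2 of them below the lowest. The 2 mTOR inhibitors shared their 6 control libraries, as did all compounds in kidney, so the comparisons with control are not independent of each other.

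Of the other inhibitors, GDC-0941 acts on PI3-kinase, upstream of mTORC1. In kidney it gave 0 called members of 39, against 0.286% of all genes. Unadjusted p-values under 0.05 numbered 6, against 15.4% of all genes, and DESeq2 called 1, Ctsh (adjusted p = 0.0317). Changes above 0 were found in 28 of 39, against 52.1% of all genes (median 0.12 over the members and 0.02 over all genes). Ctsh was at 207, 280, 289 and 238 CPM, with 3 of the 4 libraries above every control, a log2 change of 0.48 ± 0.16 (SE; edgeR adjusted p = 0.136). Ulk1 stood at -0.44. Becn1 was at 6.14 to 6.96 CPM against 1.62 to 5.90 CPM in the controls. It was the 1 member with all GDC-0941 libraries above all controls, against 1.32% of all genes, and it rests on few counts (530 over all 42 libraries).

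Ascorbyl-palmitate gave 0 called members of 39, against 0.0573% of all genes. With unadjusted p-values the threshold was passed by 3, against 15.0% of all genes, and DESeq2 called 1, again Ctsh (adjusted p = 0.0402). The log2 change was above 0 in 28 of 39, against 54.1% of all genes (median 0.10 and 0.04). Ctsh was at 292, 233, 303 and 203 CPM, with 3 of the 4 libraries above every control, and its change was 0.50 ± 0.16 (SE; edgeR adjusted p = 0.114).

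Enzastaurin gave 0 called members of 39, against 0 percent of all genes. At an unadjusted p under 0.05 there were 3, against 9.75% of all genes, and DESeq2 called 0. Changes above 0 were found in 30 of 39, against 48.4% of all genes (median 0.16 and -0.01). Atp6v0d1, a subunit of the membrane part of the V-ATPase, had the smallest p-value. It was at 116, 103, 122 and 109 CPM against 66.8 to 118 CPM (median 77.5) in the controls, a log2 change of 0.36 ± 0.15 (SE; edgeR adjusted p = 0.470). The groups overlapped.

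AS-703026 gave the 1 call among diets in kidney. Atp6v1h, the regulatory H subunit of the V-ATPase (ENSMUSG00000033793, GRCm38 chr1:5070018-5162529, plus strand), was at 130, 138, 132 and 115 CPM under AS-703026 and between 145 and 208 CPM (median 191) in the controls. All 4 treated libraries lay below every control, which held for this 1 member and for 1.73% of all genes. The log2 change was -0.51 ± 0.14 (SE; edgeR adjusted p = 0.0404). This was 1 lower call among 39 members, against 1.53% of all genes called lower and 2.77% called in either direction. The latter count, 339 genes, ran from 18 (without replicate 4 of AS-703026) to 522 (without control 2). The call was lost without any 1 of AS-703026 replicates 1 to 4 or controls 1, 2, 4 and 6 (adjusted p = 0.0513 to 0.193), and with AZD8055 replicate 4 in the fit (0.0686). RLE scaling kept the call (edgeR adjusted p = 0.0420), and so did DESeq2 (adjusted p = 0.0140). A fit of only the AS-703026 and control libraries lost it (0.118). The satellite-like share was 0.287% to 29.0% in these libraries and 0.0555% to 12.5% in the controls, and with that share as a covariate the change was -0.49 (adjusted p = 0.0567).

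Gusb was at 47.5, 83.3, 58.0 and 53.1 CPM under AS-703026, with 3 of the 4 libraries below every control, a log2 change of -1.39 ± 0.44 (SE; edgeR adjusted p = 0.0798). It was called with only these 2 groups in the fit (-1.35, edgeR adjusted p = 0.0428) and with no filter on low counts (-1.40, 1.74e-12). Without the filter the p-value moved while the change hardly did. The share of all genes called in these settings is not given here, so these calls cannot be set against it. Over the members the change was above 0 in 24 of 39, against 54.4% of all genes, and the median was 0.05 against 0.04 over all genes. An unadjusted p under 0.05 was found in 4 of 39 members, against 2210 of 12227 genes. The other V-ATPase subunits in the list stood at -0.27 (Atp6v1a), -0.03 (Atp6v0d1) and 0.01 (Atp6ap1, an accessory subunit). Summed markers of some other nephron segments lay above all controls in the same libraries. The 2 thick ascending limb markers summed to 2202 to 2662 CPM against 1070 to 1698 CPM in the controls, with 0 of 2 called by edgeR. Of these, Umod lay above all controls and Slc12a1 overlapped (235 to 343 against 114 to 279 CPM). The 3 principal cell markers summed to 191 to 216 CPM in replicates 1 to 3 and to 1443 CPM in replicate 4, against 111 to 157 CPM, with 1 of 3 called higher. Only Aqp2 lay above all controls in every AS-703026 library (121 to 1320 against 52.0 to 77.9 CPM). Aqp3 lay above all controls only in replicate 4. In that library Scnn1g was at 9.40 CPM, below every control (18.7 to 32.0 CPM). The 6 intercalated cell markers, from a cell type rich in V-ATPase, overlapped (127 to 412 against 253 to 386 CPM), with 0 of 6 called by edgeR. The 6 proximal tubule markers also overlapped (5102 to 11005 against 8709 to 12001 CPM), with 0 of 6 called. Their lowest sum was that of replicate 4, below every control. The part of these cell types in the Atp6v1h value was not tested.

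A test of any difference among the 7 kidney diets called 0 of 39 members with edgeR and 0 with DESeq2, against 1.15% of all genes with edgeR. At an unadjusted p under 0.05 there were 3, Gusb, Atp6v1h and Ctsh, against 15.7% of all genes. The smallest adjusted p was that of Gusb (edgeR, 0.140).

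Members with and without an E-box were set side by side. For the mTOR mean, the 13 tested members with CACGTG in the window had a median log2 change of 0.21, with 11 above 0. The 18 tested members with a window and no CACGTG had a median of 0.13, with 14 above 0. For KU0063794 alone the medians were 0.23 with and 0.15 without the motif, and for AZD8055 alone 0.15 and 0.17. They were 0.13 and 0.15 for GDC-0941, 0.14 and 0.18 for enzastaurin, 0.12 and 0.11 for ascorbyl-palmitate and -0.03 and 0.07 for AS-703026. Members with the motif thus had the higher median under some compounds and the lower under others. No member with the motif was called by edgeR in any of these comparisons.

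Genes around the list were read from fixed sets of the same pathways, and none was called for the mTOR mean. The sets were 31 tested genes of mTORC1 and TFEB control (median log2 change -0.05, smallest edgeR adjusted p = 0.0598), 41 other autophagy genes (median -0.00), 47 other lysosomal genes (median 0.13, smallest adjusted p = 0.0650) and 17 other V-ATPase genes (median 0.18, smallest adjusted p = 0.140). Under AS-703026 in kidney 2 of the 136 genes of these sets that were tested fell and 0 rose, against the 1.53% of all genes called lower given above. Tfec, a transcription factor of the TFEB family, was at 11.9 to 25.7 CPM against 19.5 to 37.3 CPM in the controls (log2 change -0.94 ± 0.25, edgeR adjusted p = 0.0404). Vmp1, a membrane protein of autophagosome formation, was at 180 to 220 CPM against 234 to 306 CPM (-0.43 ± 0.12, adjusted p = 0.0440). The Tfec groups overlapped and the Vmp1 groups did not. The Tfec call was lost without any 1 of AS-703026 replicates 2, 3 and 4 or controls 1, 3, 4 and 5 (adjusted p = 0.0645 to 0.210), and the Vmp1 call without any 1 of AS-703026 replicates 2, 3 and 4 or controls 3, 4 and 5 (0.0546 to 0.200). When the covariate was the satellite-like share, neither was called (adjusted p = 0.0554 and 0.0616). Without the libraries at 5% or more satellite-like counts the log2 changes were -0.34 and -0.32 (adjusted p = 0.819 and 0.667).

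In liver, where the 3 compounds could be compared only with each other, 3 members were higher under AS-703026 than under enzastaurin. They were Ctsb and Ctsl, which encode the cysteine proteases cathepsin B and L, and Ulk1. This was 3 of 39 members called higher, against 1.93% of all 9490 genes tested called higher and 2.96% called in either direction. Against GDC-0941, 1 member was higher, Ctsb, against 2.04% called higher and 3.22% in either direction. All AS-703026 libraries lay above all enzastaurin libraries in 5 members (Ulk1, Ctsb, Ctsh, Ctsl and Gusb), against 4.58% of all genes, and above all GDC-0941 libraries in 4 (Gabarap, Ctsb, Ctsh and Gusb), against 5.09%. They lay below all enzastaurin libraries in 1 member, Atp6v1h, at 42.4 to 52.1 CPM against 53.5 to 56.3 CPM, against 4.05% of all genes. A test over the 3 diets called 3 of 39 members (Ctsb, Ulk1 and Ctsl, at edgeR adjusted p = 0.0193, 0.0346 and 0.0412), against 3.20% of all genes.

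Ctsb was at 914, 913, 912 and 767 CPM under AS-703026, at 563, 706, 636 and 670 CPM under enzastaurin, and at 624, 598, 624 and 643 CPM under GDC-0941. All 4 AS-703026 libraries lay above all 8 others. The log2 difference was 0.44 ± 0.10 (SE; edgeR adjusted p = 0.0297) from enzastaurin and 0.49 ± 0.10 (0.0150) from GDC-0941.

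Ctsl (ENSMUSG00000021477, GRCm38 chr13:64359337-64370890, minus strand) was at 836, 595, 769 and 725 CPM under AS-703026, at 437, 524, 518 and 515 CPM under enzastaurin, and at 500, 451, 532 and 631 CPM under GDC-0941. The AS-703026 libraries lay above all enzastaurin libraries and overlapped GDC-0941 through 1 library on each side. The log2 difference was 0.55 ± 0.13 (SE; edgeR adjusted p = 0.0312) from enzastaurin and 0.47 (adjusted p = 0.0635) from GDC-0941.

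Ulk1 (ENSMUSG00000029512, GRCm38 chr5:110784488-110810097, minus strand) was at 97.5, 94.3, 129 and 117 CPM under AS-703026 and at 107, 103, 118 and 115 CPM under GDC-0941. Under enzastaurin it was at 81.2, 84.5, 73.6 and 76.7 CPM, below every other liver library. The log2 difference of AS-703026 from enzastaurin was 0.48 ± 0.11 (SE; edgeR adjusted p = 0.0321), and that of enzastaurin from GDC-0941 was -0.49 ± 0.11 (adjusted p = 0.315). All enzastaurin libraries lay below all GDC-0941 libraries in 2 members, Ulk1 and Atg5, against 2.44% of all genes. Between enzastaurin and GDC-0941, 0 of 39 members were called with edgeR, against 0 percent of all genes. Unadjusted p-values under 0.05 numbered 3, against 8.03% of all genes, and DESeq2 called 1, Ulk1 (adjusted p = 0.0446).

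**Figure D3:**
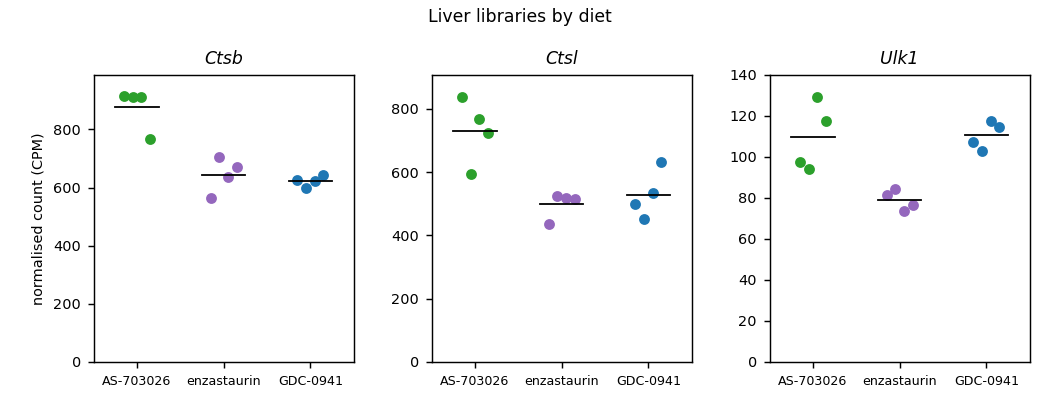
CPM per liver library for Ctsb, Ctsl and Ulk1 under AS-703026, enzastaurin and GDC-0941. Points are libraries and bars are group means. The AS-703026 points for Ctsb lie above all others, and the enzastaurin points for Ulk1 lie below all others.

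Leaving out single libraries changed the calls in liver. Against enzastaurin the number of called members was 0 without AS-703026 replicate 3 or without enzastaurin replicate 1, 3 or 4, 1 without AS-703026 replicate 1 or 4 or enzastaurin replicate 2, and 3 without AS-703026 replicate 2. The Ctsb call against GDC-0941 was lost without AS-703026 replicate 1 (adjusted p = 0.0523) or 3 (0.0612). The satellite-like share was 0.857% to 1.77% in the AS-703026 livers, 0.124% to 0.602% under enzastaurin and 0.329% to 0.645% under GDC-0941. The AS-703026 range overlapped neither of the others, so in liver this share and AS-703026 cannot be told apart. With that share as a covariate, 0 members were called, and the Ctsb difference was 0.26 from enzastaurin (edgeR adjusted p = 0.806) and 0.36 from GDC-0941 (0.437).

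Summed markers of other cells also separated some of these livers. The 3 blood markers summed to 4090 to 6720 CPM under AS-703026, against 1121 to 2928 CPM under enzastaurin and 1704 to 3908 CPM under GDC-0941. The 2 that could be tested were both called higher than under enzastaurin and 0 were against GDC-0941. The 10 macrophage markers summed to 441 to 588 CPM, against 268 to 433 CPM under GDC-0941 and 351 to 612 CPM under enzastaurin, with 2 of 9 tested called higher against GDC-0941 and 0 of 9 against enzastaurin. The hepatocyte markers summed to 60362 to 68108 CPM, below the 74175 to 78208 CPM under enzastaurin and overlapping GDC-0941 (66668 to 78992 CPM). Against each of these compounds 1 of the 6 was called higher and 0 lower. The sum mixed directions. Fgb was at 7205 to 19246 CPM, against 4245 to 6312 CPM in the other livers, and Alb at 8123 to 21159 against 19047 to 27804 CPM. The 7 adipocyte markers summed to 539 CPM in enzastaurin replicate 2, which stayed in the fit. They summed to 9.62 to 11.8 CPM under AS-703026 and 10.4 to 18.9 CPM under GDC-0941. The part of blood, macrophages and adipocytes in the cathepsin values was not tested.

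Of the 123 genes of those other sets that were tested in liver, 3 were higher under AS-703026 than under enzastaurin and the same 3 than under GDC-0941, against the 1.93% and 2.04% of all genes called higher, and 0 were lower. Ctsc, cathepsin C, was at 92.4 to 172 CPM against 40.6 to 70.3 CPM under enzastaurin and 40.9 to 87.8 CPM under GDC-0941, a log2 difference of 1.34 and 1.25 (edgeR adjusted p = 0.00961 and 0.0132). Grn, progranulin, a protein delivered to lysosomes, was at 504 to 710 CPM against 352 to 389 and 299 to 417 CPM (0.70 and 0.79, adjusted p = 0.00906 and 0.00478). Atg14, a subunit that directs the autophagy lipid kinase, was at 37.3 to 43.7 CPM against 21.4 to 29.8 and 22.1 to 31.1 CPM (0.74 and 0.56, adjusted p = 0.0109 and 0.0422). None of the 3 genes' AS-703026 ranges overlapped the others. When the satellite-like share entered as a covariate, none of these differences was called, at adjusted p = 0.151 to 0.646. The log2 differences from enzastaurin and GDC-0941 were then 0.93 and 0.92 for Ctsc, 0.64 and 0.74 for Grn, and 1.02 and 0.76 for Atg14. As this share separated the AS-703026 livers from the others, share and diet cannot be told apart. Without any 1 of AS-703026 replicates 1, 3 and 4 or of the 4 GDC-0941 libraries, the Atg14 call against GDC-0941 was lost (adjusted p = 0.0505 to 0.124).

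The largest differences among the members were between the tissues. AS-703026, enzastaurin and GDC-0941 were given in both, so 12 kidney and 12 liver libraries were compared over the same 3 diets and 12262 genes. Of 39 members, 32 were called, 20 higher and 12 lower in kidney, against 77.4% of all genes called, 39.2% higher and 38.2% lower. All kidney libraries lay above all liver libraries in 11 members, against 16.8% of all genes, and below them in 11, against 18.8%. The members' median log2 difference, kidney minus liver, was 0.30 against 0.05 over all genes. RLE scaling moved both medians up, to 0.41 and 0.16. That shift of 0.11 ended the call of Ctsb (log2 difference -0.30, edgeR adjusted p = 0.00495; under RLE -0.19 and 0.0655).

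**Figure D4:**
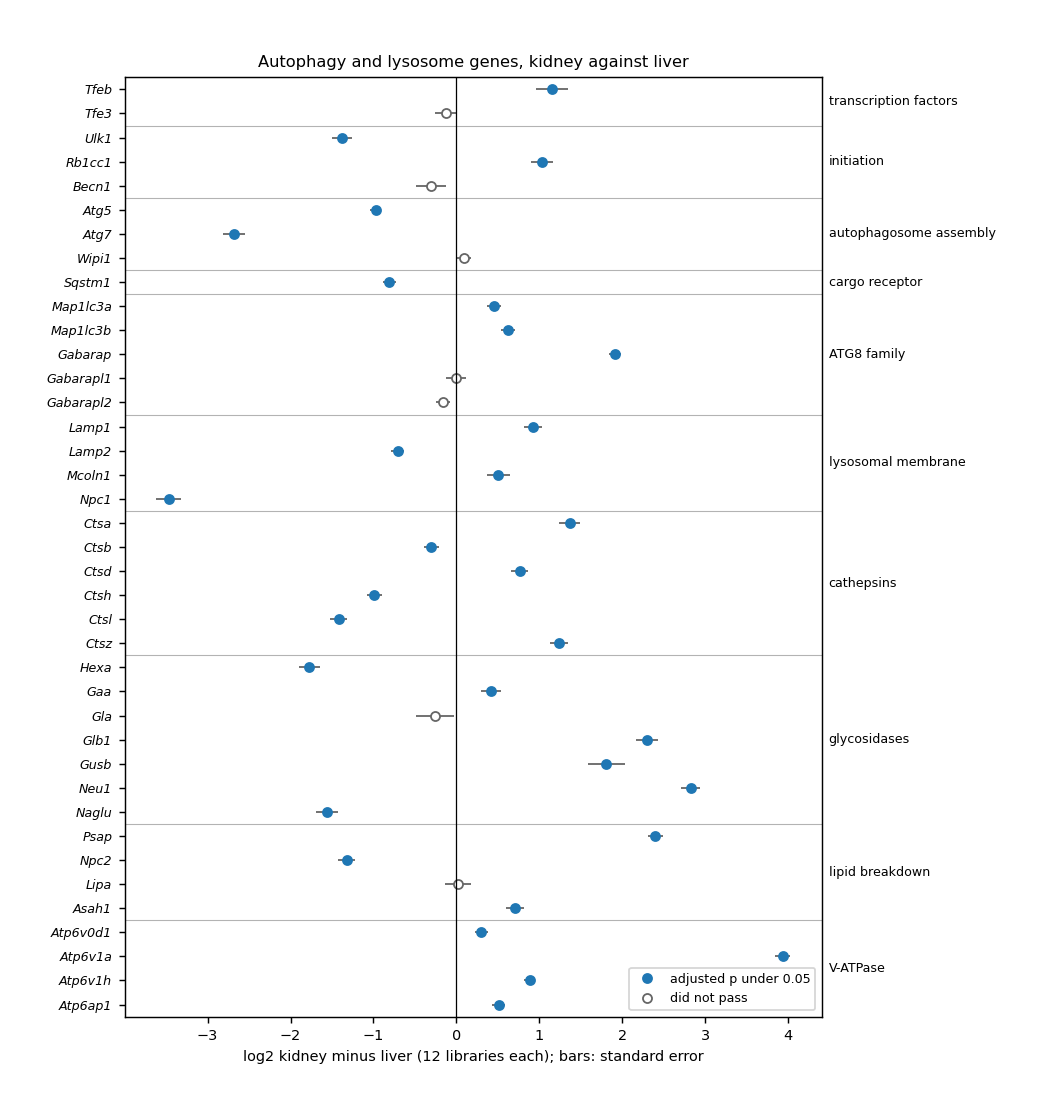
Log2 difference between kidney and liver (kidney minus liver, with its SE) for the 39 members tested, ordered by role, over 12 libraries per tissue. Filled points passed an adjusted p under 0.05; the 4 V-ATPase members lie above 0, and Atp6v1a at 3.93 and Npc1 at -3.47 are the ends of the range.

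All 4 V-ATPase members were higher in kidney. Atp6v1a (ENSMUSG00000052459, GRCm38 chr16:44085402-44139705, minus strand) was at 964 CPM at the lowest, 1283 at the median and 1545 at the highest in kidney, and at 68.7, 81.3 and 93.8 CPM in liver. The tissues did not overlap, and the log2 difference was 3.93 ± 0.09 (SE; edgeR adjusted p = 2.93e-22), or 15.3-fold. The other 3 were closer, with log2 differences of 0.89 for Atp6v1h, 0.51 for Atp6ap1 and 0.30 for Atp6v0d1. The 4 subunits of the pump differed between tissues by unequal amounts of RNA.

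The enzymes were split. Of the 7 glycosidases 4 were higher in kidney and 2 lower. Neu1 had the largest difference of them, at 205, 288 and 349 CPM (lowest, median and highest) in kidney and 31.4, 41.8 and 54.0 CPM in liver, a log2 difference of 2.83 ± 0.11 (SE; edgeR adjusted p = 1.2e-17), or 7.09-fold. Glb1 (2.30), Gusb (1.81) and Gaa, acid alpha-glucosidase (0.42), were also higher in kidney. Hexa, the alpha subunit of beta-hexosaminidase (-1.77), and Naglu (-1.56) were lower. Of the cathepsins, Ctsa (1.37), Ctsz (1.24) and Ctsd (0.77) were higher in kidney, and Ctsl (-1.42), Ctsh (-0.99) and Ctsb (-0.30) were lower. CTSA is a serine carboxypeptidase that also shields NEU1 and GLB1 in 1 complex, and the RNAs of all 3 were higher in kidney.

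Genes of lipid handling were split as well. Psap, the precursor of the saposins that present lipids to hydrolases (2.40), and Asah1, acid ceramidase (0.71), were higher in kidney. The cholesterol exporters of the lysosome were both lower. Npc1 was at 2.64, 3.74 and 6.33 CPM in kidney and 24.9, 45.8 and 56.4 CPM in liver, a log2 difference of -3.47 ± 0.15 (SE; edgeR adjusted p = 5.38e-17), or 11.1-fold lower. Npc2 differed by -1.32. Lipa, which releases cholesterol from its esters in the lysosome, did not pass the test. Lamp1 (0.92) and Mcoln1 (0.50) were higher in kidney and Lamp2 (-0.71) was lower.

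Of the genes of initiation and autophagosome assembly, 3 were lower in kidney and 1 higher. Atg7, which activates ATG8 proteins for attachment to lipid, was at 6.06, 9.93 and 13.5 CPM in kidney and 46.8, 61.8 and 82.5 CPM in liver. The tissues did not overlap, and the log2 difference was -2.69 ± 0.13 (SE; edgeR adjusted p = 1.21e-15), or 6.43-fold lower. Ulk1 (-1.38), Atg5 (-0.97), which acts in the same attachment, and Sqstm1 (-0.81) were lower in kidney, and Rb1cc1 (1.03) was higher. Of the ATG8 family, Gabarap (1.91), Map1lc3b (0.63) and Map1lc3a (0.45) were higher in kidney, and Gabarapl1 and Gabarapl2 did not pass the test. Tfeb (1.15) was higher in kidney, and Tfe3 did not pass. Becn1, Wipi1, which binds the lipid made by the Becn1 complex, and Gla also did not pass.

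Whether the differences among the 3 compounds were themselves unequal between kidney and liver was tested as an interaction. The test called 0 of 39 members with edgeR, against 0.163% of all genes. With unadjusted p-values the threshold was passed by 6, against 10.0% of all genes, and DESeq2 called 2, Gusb (adjusted p = 0.0238) and Ctsl (0.0246). The log2 kidney to liver difference of Gusb was 0.56 under AS-703026, 2.47 under enzastaurin and 2.41 under GDC-0941 (edgeR adjusted p = 0.210). For Ctsl it was -1.95, -1.07 and -1.24 (adjusted p = 0.261), and for Ctsz 0.63, 1.59 and 1.54 (0.233). In each of the 3 genes the AS-703026 value was the lowest.

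Some members share exon bases with another gene, and the strand setting of the counting is not given in the sources used here, so their reads may not be fully separable. Ctsb shares 774 bases with Fdft1 on the opposite strand (2439 counts over all libraries, against 92056 for Ctsb), and Atp6v1h shares 127 bases with Rgs20 (13 counts). Becn1 shares 3104 bases with Cntd1, with 530 and 13 counts, and Glb1 shares 165 bases with Tmppe on the same strand, with 4836 and 1470 counts. On the opposite strand, Npc1 shares 511 bases with Rmc1 (1496 and 213 counts) and Lamp1 shares 249 with Grtp1 (397475 and 5212 counts). Further members, among them Ctsa and Gabarapl1, share exon bases as well.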

How the data were processed

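RNA of 30 kidney and 12 liver libraries was measured by CEL-seq, and the authors deposited 1 table of raw counts per Ensembl gene. Per the submitters' processing notes, bcl2fastq 1.8.4, Trimmomatic 0.32, STAR 2.5.2b and featureCounts 1.5 were used with build mm10. No annotation release, strand setting or use of molecular identifiers in counting was given in the sources used here. Symbols and positions came from GENCODE M21 (GRCm38), which matched 42462 of the 43629 identifiers.

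Counts were tested as deposited with edgeR 4.0.16 in R 4.3.3 (quasi-likelihood test, TMM scaling, filterByExpr, Benjamini-Hochberg adjustment over all genes tested, threshold 0.05). The kidney fit held 29 libraries, without AZD8055 replicate 4, and tested 12227 genes. The liver fit held 12 libraries and 9490 genes, and the fit over both tissues 24 libraries and 12262 genes. CPM values are TMM-scaled within each fit, so levels of a gene differ between fits. AZD8055 replicate 4 was put on the scale of the 29 other kidney libraries with its own TMM factor. Alternatives were RLE scaling, no filter, DESeq2 1.42.0, a replicate block, only the groups compared, the log2 satellite-like share as a covariate, inclusion of that library, omission of libraries with at least 5% satellite-like counts, and omission of each library in turn. The scripts were tested on simulated data.

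Same-numbered replicates did not deviate together: the median correlation of their deviations was -0.02 over 78 pairs in kidney, and 25 pairs were above 0.1. No 2 libraries of the same group were duplicates, and pairs from different groups were not compared.

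The members, the pathway and marker lists and the satellite-like models were chosen with earlier results of these data known. Values per library (lowest, median and highest for groups over 5 libraries) are given for members called in a comparison of diets, for the member with the smallest p-value in each, and for the 2 members with the largest tissue difference in each direction. Of the other lists, genes called between diets are named, and up to 2 per list and direction between tissues. P-values set a difference between groups against the spread between these libraries.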

Additional observations from a re-analysis of the deposited data

Results flagged for a closer look

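In 27 of 390 combinations of a member and a group (6.92%), the highest or lowest library stood far from the others by Dixon's criterion, which chance meets in about 1 in 20. AZD8055 kidney replicate 4 accounted for 7. There Map1lc3a was at 371 CPM (other libraries 171 to 177), Ctsb at 2766 (826 to 1122), Npc2 at 305 (76.3 to 103) and Atg7 at 19.1 (10.3 to 11.6). Ctsl was at 229 CPM there (336 to 353), Glb1 at 23.5 (68.0 to 77.1) and Naglu at 8.33 (14.1 to 14.4).

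Among the other kidney libraries a high value stood out in 8 cases. Lipa was at 622 CPM in ascorbyl-palmitate replicate 2 (others 327 to 345), where Hexa was at 16.3 (12.2 to 12.9). Gusb was at 179 in KU0063794 replicate 2 (70.7 to 81.8), and Lamp2 at 781 in KU0063794 replicate 3 (619 to 639). Gla was at 8.18 in control replicate 6 (3.24 to 4.57), and Atg5 at 88.1 in control replicate 4 (59.0 to 64.1). Gabarap was at 609 in AS-703026 replicate 1 (471 to 488), and Ctsz at 86.9 in AZD8055 replicate 3 (74.8 to 76.3 with replicate 4 included).

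A low value stood out in 4 kidney cases. Ulk1 was at 54.6 CPM in ascorbyl-palmitate replicate 4 (68.0 to 70.1), and Ctsd at 300.3 in KU0063794 replicate 3 (348 to 357). Asah1 was at 18.2 in KU0063794 replicate 1 (30.7 to 31.6), and Npc2 at 61.1 in AS-703026 replicate 2 (88.9 to 94.3).

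In liver 8 values stood out. Ctsb was at 767 CPM in AS-703026 replicate 4 (912 to 914), Gla at 3.50 in AS-703026 replicate 1 (6.34 to 6.84) and Wipi1 at 25.4 in AS-703026 replicate 2 (34.4 to 35.6). Under enzastaurin, Ctsl was at 437 (515 to 524) and Mcoln1 at 8.12 (12.3 to 12.4) in replicate 1, and Atp6v1h at 53.5 in replicate 2 (55.8 to 56.3). Under GDC-0941, Lamp1 was at 1663 in replicate 3 (1624 to 1628) and Atp6ap1 at 47.1 in replicate 2 (43.3 to 43.9).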

How the results depend on the processing

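Between kidney and liver, 31 members were called under RLE scaling, 31 with no filter on low counts and 33 by DESeq2, and 32 to 33 without any 1 library. RLE scaling changed no count of called members between diets. With no filter on low counts, Gusb was the 1 call for AZD8055 against control, AZD8055 against KU0063794, the test over 7 kidney diets and the interaction, and for AS-703026 in kidney it replaced Atp6v1h (adjusted p = 0.0658). The edgeR adjusted p of Gusb was then 0.0165, 6.89e-08 and 2.01e-26 in the first 3 and 1.74e-12 for AS-703026. Its log2 changes stayed close to the main fit (1.29 between the mTOR inhibitors and -1.40 for AS-703026). The share of all genes called in that setting is not given here. In liver that setting called 1 member against enzastaurin and 3 against GDC-0941. DESeq2 called 1 member for the mTOR mean, AZD8055, GDC-0941, ascorbyl-palmitate and liver enzastaurin against GDC-0941, and 2 for liver AS-703026 against GDC-0941 and for the interaction. A replicate block gave 0 calls for AS-703026 in kidney, liver AS-703026 against enzastaurin and the test over 3 liver diets, and changed no other count of called members. The satellite-like covariate gave 0 calls in those comparisons and for liver AS-703026 against GDC-0941. A fit of only the 2 groups gave 0 for liver AS-703026 against enzastaurin. For AS-703026 in kidney that fit called Gusb (adjusted p = 0.0428) in place of Atp6v1h (0.118). With AZD8055 replicate 4 included, AZD8055 gave 4 calls and AS-703026 in kidney 0. Without the libraries at 5% or more satellite-like counts, AS-703026 in kidney gave 0 and ascorbyl-palmitate 1 (Ctsh). That setting left 1 AS-703026 and 1 AZD8055 library, which are assumed to vary like the other groups.

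Leaving out 1 library gave 0 to 1 calls for AS-703026 in kidney, 0 to 1 for the mTOR mean (Map1lc3a without control 6), 0 to 1 for AZD8055 (Map1lc3a without control 2 or 6) and 0 to 1 for the interaction (Ctsz without kidney AS-703026 replicate 1). In liver it gave 0 to 3 calls in both comparisons of AS-703026 and in the test over 3 diets. No direction of a named gene reversed. The cause of these changes was not tested. The replicate block also ended the calls of Tfec and Vmp1 for AS-703026 in kidney (adjusted p = 0.108 and 0.152), as did a fit of only the 2 groups (0.102 and 0.145) and inclusion of AZD8055 replicate 4 (0.144 and 0.0859), and no filter ended that of Vmp1 (0.172). Members under about 10 CPM, such as Becn1, Gla and Npc1 in kidney, rest on few counts.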

Other observations

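Genes of the same pathways outside the 40 also differed between kidney and liver over the same 24 libraries. All 17 other V-ATPase genes tested were higher in kidney. Atp6v1b2, a B subunit, was at 465 to 933 CPM in kidney and 39.9 to 58.7 CPM in liver (log2 difference 3.83 ± 0.11, edgeR adjusted p = 3.49e-20). Atp6v0a4, a kidney form of the a subunit, was at 61.3 to 97.8 CPM in kidney and at most 0.735 CPM in liver. Of 48 other lysosomal genes 24 were higher in kidney and 22 lower. Cd63, a tetraspanin of late endosomes and lysosomes, was at 342 to 588 CPM against 1.32 to 5.25 CPM (7.17 ± 0.16), and Galns, a sulfatase of keratan sulfate breakdown, at 53.0 to 77.4 against 2.41 to 8.51 CPM (4.02 ± 0.12). Scarb2, the receptor that carries beta-glucocerebrosidase to lysosomes, was at 4.57 to 10.6 CPM in kidney and 67.0 to 99.5 CPM in liver (-3.52 ± 0.11), and Acp2, a lysosomal acid phosphatase, differed by -1.77.

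Of 41 other autophagy genes 11 were higher in kidney and 22 lower. The cargo receptor Optn was at 1.30 to 5.73 CPM in kidney and 20.9 to 36.2 CPM in liver (-3.27 ± 0.15, edgeR adjusted p = 1.72e-16), while Tax1bp1, another cargo receptor, was at 206 to 327 against 109 to 157 CPM (0.92). Ulk2, a relative of Ulk1, differed by -1.18, in the direction of Ulk1, and Bcl2, which binds Becn1, by 2.68. Of 31 genes of mTORC1 and TFEB control 15 were higher in kidney and 9 lower. Rragd, a Rag GTPase, was at 12.96 to 44.2 CPM in kidney and at most 1.92 CPM in liver, and Ppargc1a, a transcriptional coactivator, differed by 2.82. Rptor, the subunit that defines mTORC1, differed by -1.19 and Lamtor2, part of its lysosomal anchor, by -0.77. Over all genes 77.4% were called between the tissues.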
